A study of Homo sapiens with 56 samples.

Results

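Immediate early genes were followed as 10 transcripts: FOS, FOSB, JUN, JUNB, JUND, EGR1, EGR2, EGR3, IER2 and NR4A1. They were taken by gene symbol from a table of 21595 named genes, and all 10 were found in it. The 56 libraries came from established lines of mantle cell lymphoma, a tumour of mature B cells: 15 from JEKO-1, 13 from Z138, 15 from MINO-P and 13 from MINO-VR. Neither the meaning of P and VR nor any dose or time is given in the sources used here. Cells were left untreated (CON, 5 libraries) or received IBR (11), BTZ (6), S63845 (6), CLF (6) or YM155 (4) alone. Pairs of agents were IBR with CLF (8 libraries, IBR_CLF), with YM155 (2) and with S63845 (1), and BTZ with CLF (4, BTZ_CLF), with YM155 (2) and with S63845 (1). CON was read as untreated because the design text names untreated samples. CLF, BTZ and IBR are codes that the labels do not spell out, while the design text speaks of a PI and a BTKi. YM155 was developed as a suppressor of the survivin gene BIRC5, and S63845 inhibits the MCL-1 protein. Of the 37 groups of line and treatment, 22 held 1 library, 11 held 2 and 4 held 3, and the labels do not say that libraries of a group came from separate cultures, so p-values measure only the spread between these libraries.

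Immediate early genes are transcribed within minutes of a stimulus, before any new protein is made, when kinases such as ERK, JNK and p38 act on factors already bound at their promoters. FOS and FOSB proteins pair with JUN, JUNB or JUND to form the AP-1 factor, the EGR proteins are zinc finger factors, NR4A1 is an orphan nuclear receptor, and IER2 is a small nuclear protein. In B cells the antigen receptor is a well-known inducer of EGR1, EGR2, EGR3 and NR4A1, whereas JUN also responds to stress kinases and to its own protein.

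The RefSeq promoter table (GRCh38.p14) held windows of 250 bases before to 50 after a transcription start for 9 of the 10 genes, all but EGR3. A window each of EGR1, EGR2, JUN and FOS is shown as an example. EGR1 and EGR2 are from the same set of genes with like patterns, described below. In the first pair the capitals mark the CArG box, the element that serum response factor is known to bind. It matched 2 times in the EGR1 window, at -105 and -83 counted in bases from the start, and 1 time in this EGR2 window, at -71. In JUN the capitals mark GAANNTTC, a pair of inverted heat shock units, and TGACATCA, the AP-1 site form known from JUN itself. In FOS they mark TGACG, the core of the cyclic AMP response element, and TATAAA. The EGR1 window is chr5:138465229-138465528 on the plus strand, EGR2 chr10:62816317-62816616 on the minus strand, JUN chr1:58783998-58784297 on the minus strand and FOS chr14:75278578-75278877 on the plus strand.
EGR1: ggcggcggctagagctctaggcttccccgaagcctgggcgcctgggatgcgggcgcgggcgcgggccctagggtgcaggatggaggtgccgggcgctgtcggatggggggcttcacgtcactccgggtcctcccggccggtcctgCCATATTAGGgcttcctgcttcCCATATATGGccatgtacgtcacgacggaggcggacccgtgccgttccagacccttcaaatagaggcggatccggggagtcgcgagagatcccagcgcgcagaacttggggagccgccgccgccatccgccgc
EGR2: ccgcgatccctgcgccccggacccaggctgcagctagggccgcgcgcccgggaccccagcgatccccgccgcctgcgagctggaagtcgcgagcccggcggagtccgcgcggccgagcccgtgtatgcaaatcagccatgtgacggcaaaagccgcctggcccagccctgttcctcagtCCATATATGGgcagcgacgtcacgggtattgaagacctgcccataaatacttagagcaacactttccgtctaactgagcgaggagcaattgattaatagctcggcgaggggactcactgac
JUN: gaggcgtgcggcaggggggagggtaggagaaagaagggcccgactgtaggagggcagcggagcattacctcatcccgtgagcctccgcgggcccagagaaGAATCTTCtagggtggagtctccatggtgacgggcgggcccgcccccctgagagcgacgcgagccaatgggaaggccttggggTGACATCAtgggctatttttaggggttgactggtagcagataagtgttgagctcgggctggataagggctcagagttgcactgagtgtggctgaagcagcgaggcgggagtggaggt
FOS: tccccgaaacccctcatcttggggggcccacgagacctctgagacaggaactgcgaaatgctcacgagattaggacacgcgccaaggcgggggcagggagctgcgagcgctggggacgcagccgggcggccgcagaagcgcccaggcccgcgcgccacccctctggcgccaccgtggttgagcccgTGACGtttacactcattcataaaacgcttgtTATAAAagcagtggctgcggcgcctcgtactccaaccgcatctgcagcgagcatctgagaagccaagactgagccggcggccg

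Both strands of 35116 such windows were searched. The CArG box was present in 1.29% of them and, among the 9 genes with a window, in EGR1 and EGR2. TGACATCA was present in 2.61% and GAANNTTC in 6.77%, with JUN the gene that held each. TATAAA was present in 11.5% and matched FOS, FOSB and JUNB, while TGACG was present in 24.6% and matched 8 of the genes. TGANTCA was present in 7.71% and matched none. No searched motif overlapped another in the 4 printed windows. A match describes letters in a window and not a bound site. EGR3 and bases more than 250 before a start were not searched, so a missing match does not mean that a gene lacks the element.

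Expression is given as nuclear CPM, CPM (read counts scaled to library size) taken over the reads of nuclear-encoded genes. The deposited CPM were rescaled in this way because mitochondrial transcripts held 1.91% to 80.5% of a library (median 6.69%). Recovered depth was 5.52 to 21.6 M reads, of which 1.37 to 20.6 M were nuclear, so that 3 reads were worth 0.145 to 2.18 nuclear CPM. CON, CLF, BTZ and BTZ_CLF of both MINO cultures came from library names starting with HK and all other libraries from names starting with MCL, so IBR, YM155 and S63845 against CON within MINO cannot be told apart from that difference. The B-cell marker MS4A1 lay at 206 to 2039 nuclear CPM and CCND1 at 207 to 3252, whereas the T-cell marker CD3E was at 0 in 41 and CD2 in 53 of 56 libraries. JEKO-1 BTZ replicate 3 stood apart from the other BTZ libraries of its line (Pearson r over all genes 0.75 with each, against 0.95 between those 2), and the pooled BTZ changes of the 10 genes are given with and without it. In bulk RNA, fewer expressing cells and less RNA per cell cannot be told apart.

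In untreated cells the genes differed widely in level per kilobase of exons. The length was that of all exons annotated for a gene in GENCODE, merged over its transcripts. It was 7.295 kilobases for NR4A1, 5.553 for FOSB and 1.82 for JUNB, and can exceed the length of any single transcript. The median over the 5 CON libraries was 78.3 nuclear CPM per kilobase for JUND, 51.1 for JUNB and 24.2 for IER2. NR4A1 (4.21), EGR2 (4.15), JUN (3.53), EGR1 (3.46) and EGR3 (1.97) followed, and FOS (0.355) and FOSB (0.0780) were lowest. The 5 in the middle of that order did not separate, since their CON ranges overlapped (EGR1 1.80 to 23.4 and NR4A1 2.003 to 8.43 per kilobase). Ranges also overlapped for JUND (51.6 to 100.3) with JUNB (44.5 to 162), and for FOS (0.191 to 2.85) with EGR3 (0.179 to 8.51). That of IER2 (12.7 to 50.5) overlapped those of JUNB and EGR1. JUND, the AP-1 subunit usually described as constitutive, varied 9.32-fold over all 56 libraries, from 49.4 to 460.1 nuclear CPM, while JUN ran from 0.0738 to 558. Both lowest values came from JEKO-1 BTZ replicate 3, where 3 reads were worth 0.221 nuclear CPM. The lowest elsewhere were 63.8 for JUND and 1.04 for JUN. EGR3 was at 0 in 14 libraries, FOS in 4 and EGR2 in 2.

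**Figure D1:**
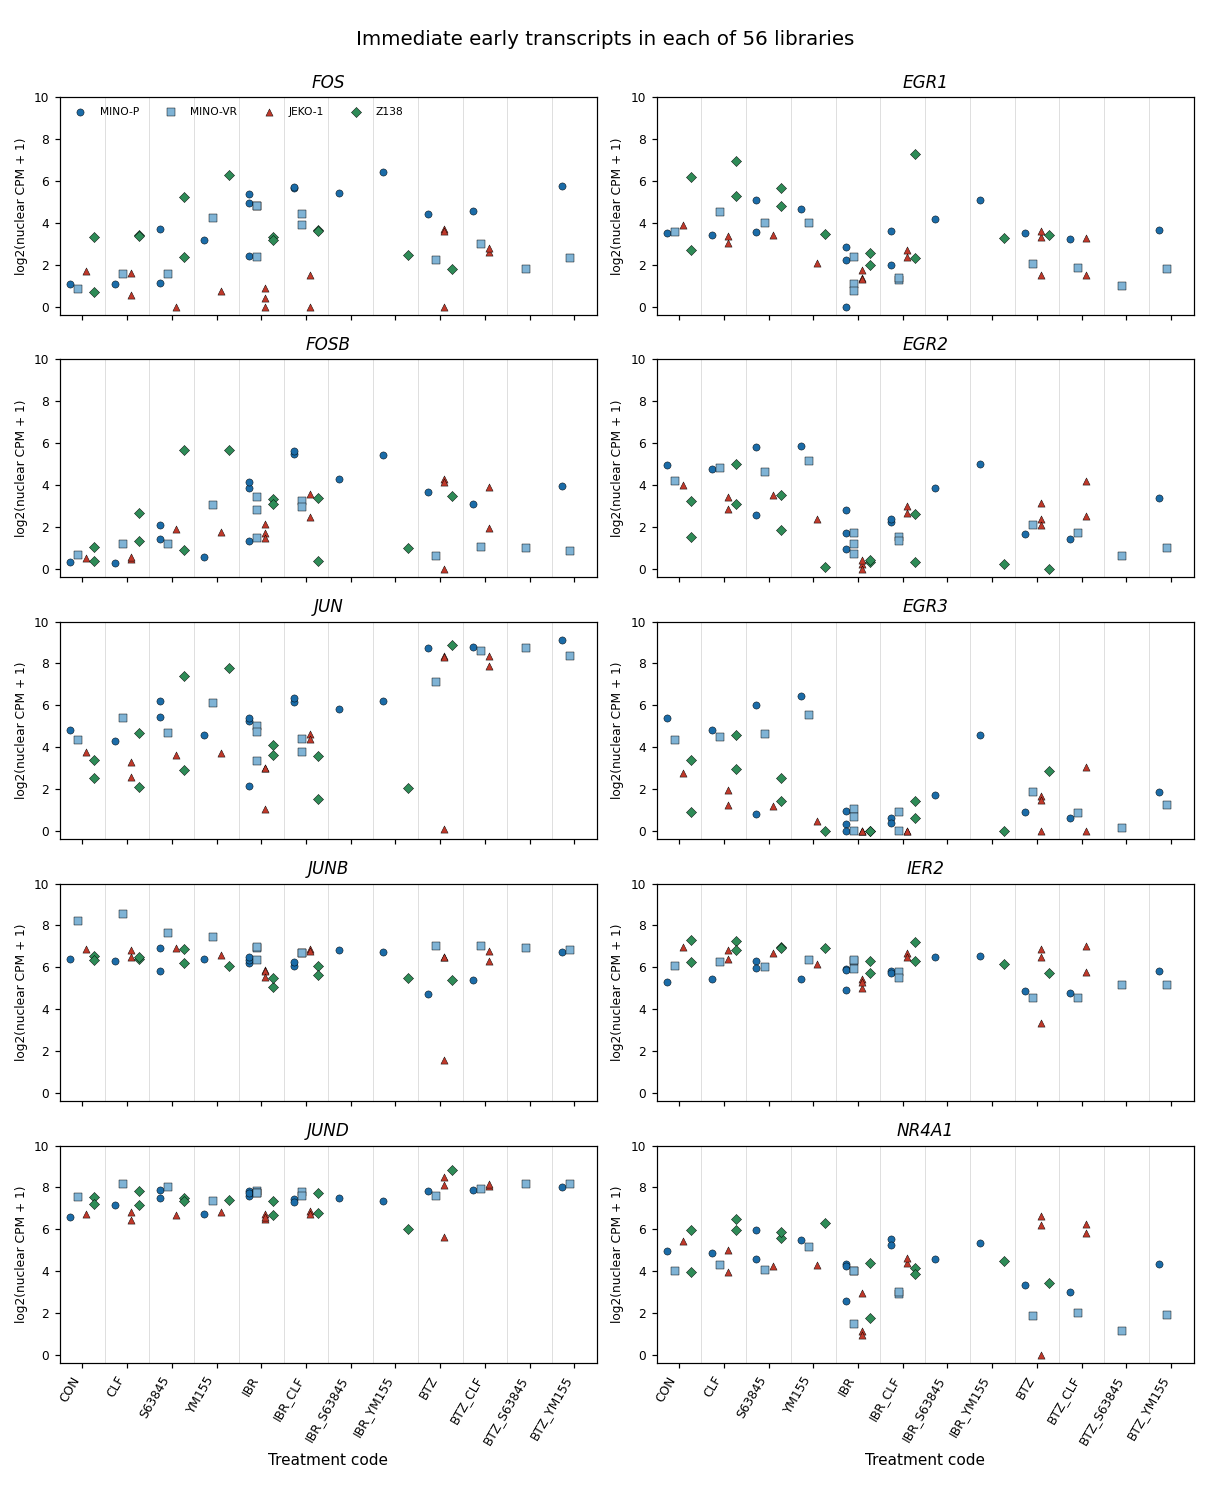
Expression of the 10 genes in each of 56 libraries, as log2(nuclear CPM + 1) on the vertical axis against treatment on the horizontal axis. Each point is 1 library and its colour and shape give the cell line. JUN lies between 136 and 558 nuclear CPM in the libraries with BTZ except JEKO-1 BTZ replicate 3, and EGR3 lies under 1 nuclear CPM in 18 of 22 libraries with IBR.

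With BTZ, JUN rose and JUNB, EGR2 and IER2 fell against CON. These were 4 of the 10 genes at an adjusted p under 0.05 in limma's additive model of treatment, line and library name series, in which 16.8% of 16755 genes were called (4% higher, 12.8% lower). Members thus moved in opposite directions: 1 was called higher and 3 lower, and the median fitted log2 change over all 10 was -1.08 against -0.19 over all genes tested. Each treatment below is compared with the same 5 CON libraries, so the comparisons are not independent of one another.

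JUN, the AP-1 subunit that activates most strongly, stood at 12.5 nuclear CPM in JEKO-1 CON, 27.1 in MINO-P CON, 19.4 in MINO-VR CON, and 4.68 and 9.60 in the Z138 CON libraries. With BTZ it was at 418 in MINO-P, 136 in MINO-VR and 473 in Z138, and in JEKO-1 at 329, 314 and 0.0738. JEKO-1 BTZ replicate 3 therefore lay below every CON library and the other 5 BTZ libraries above all of them. The fitted log2 change was 3.07 ± 1.03 (SE; adjusted p = 0.035, limma). It was 4.46 without that library (adjusted p = 0.000201, limma), and leaving out any of 7 other samples in turn left the change at 2.35 to 3.08 with adjusted p from 0.0590 to 0.133 (limma). Across all treatments, 11 of 13 libraries with BTZ exceeded 219 nuclear CPM, the highest JUN value in the 21 libraries with neither BTZ nor IBR, and the 7 libraries that combined BTZ with another agent lay between 237 and 558. JUND was at 96.1 to 187 in CON and at 191 to 460 with BTZ except in JEKO-1 BTZ replicate 3 (49.4). Its fitted change was 0.66 ± 0.32 (adjusted p = 0.157, limma), and 1.08 without that library (adjusted p = 0.00242, limma).

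JUNB, an AP-1 subunit that can oppose JUN, lay below CON in every BTZ library of its line. It fell from 84.1 to 25.8 nuclear CPM in MINO-P, from 295 to 130 in MINO-VR, from 93.0 and 80.9 to 41.7 in Z138, and from 117 to 90.01, 89.1 and 1.99 in JEKO-1. The fitted log2 change was -1.88 ± 0.49 (adjusted p = 0.00642, limma) and -1.06 without JEKO-1 BTZ replicate 3 (adjusted p = 0.0106, limma). EGR2, which restrains lymphocyte activation, was at 30.2 in MINO-P CON and 2.13 with BTZ, at 17.6 and 3.32 in MINO-VR, at 8.45 and 1.92 in Z138 CON and 0 with BTZ, and at 15.3 in JEKO-1 CON against 4.29, 7.80 and 3.32. Its groups did not overlap within any line, and its change was -2.07 ± 0.71 (adjusted p = 0.0376, limma), with 6 of the 10 samples each able to take the adjusted p past 0.05 when left out (0.0719 to 0.0979). Without JEKO-1 BTZ replicate 3 it was -2.14 (adjusted p = 0.0375, limma). IER2 was at 39.0 to 155 in CON and 9.30 to 117 with BTZ, again without overlap within a line. Its change was -1.26 ± 0.37 (adjusted p = 0.0166, limma), and it missed the threshold without JEKO-1 BTZ replicate 3 (-0.77, adjusted p = 0.0689) or without JEKO-1 CON (-1.14, adjusted p = 0.0579). JUNB, EGR2 and IER2 were the members below CON in all 4 lines, an order that 12.1% of 17203 genes showed, and no member was above CON in all 4 (3.48% of genes). Without JEKO-1 BTZ replicate 3, JUN and JUND were above CON in all 4 lines (8.21% of genes) and the same 3 members below (18.3%). In JEKO-1 and Z138 alone the changes were 2.98 for JUN, -2.17 for JUNB, -1.58 for EGR2 and -1.42 for IER2, and none passed (adjusted p from 0.0987 to 0.307, limma).

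The other genes did not pass the test with BTZ. NR4A1 was at 14.6 to 61.5 nuclear CPM in CON, at 9.27, 2.61 and 9.76 with BTZ in MINO-P, MINO-VR and Z138, and at 98.1, 74.1 and 0 in JEKO-1, where CON was 42.5. The first 3 lines thus lay lower with BTZ and 2 of 3 JEKO-1 libraries higher, and the pooled change was -1.73 ± 0.73 (adjusted p = 0.0981, limma), or -0.91 without JEKO-1 BTZ replicate 3 (adjusted p = 0.355). EGR3 had a fitted change of -1.67 ± 0.85 and EGR1 of -0.89 ± 0.70. FOS, which lay at 0.619 to 9.23 in CON, was at 21.0 in MINO-P, 3.74 in MINO-VR, 2.51 in Z138, and 12, 11.1 and 0 in JEKO-1. FOS changed by 1.36 ± 0.84 and FOSB by 1.99 ± 0.92 in the fit, with adjusted p of 0.278 and 0.135 (limma). Without JEKO-1 BTZ replicate 3, FOSB passed (2.56, adjusted p = 0.0473, limma), while FOS (1.75), EGR1 (-0.68) and EGR3 (-1.79) did not. Without the other 2 JEKO-1 BTZ libraries, which were averaged, NR4A1 passed (-2.54, adjusted p = 0.00735, limma).

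**Figure D2:**
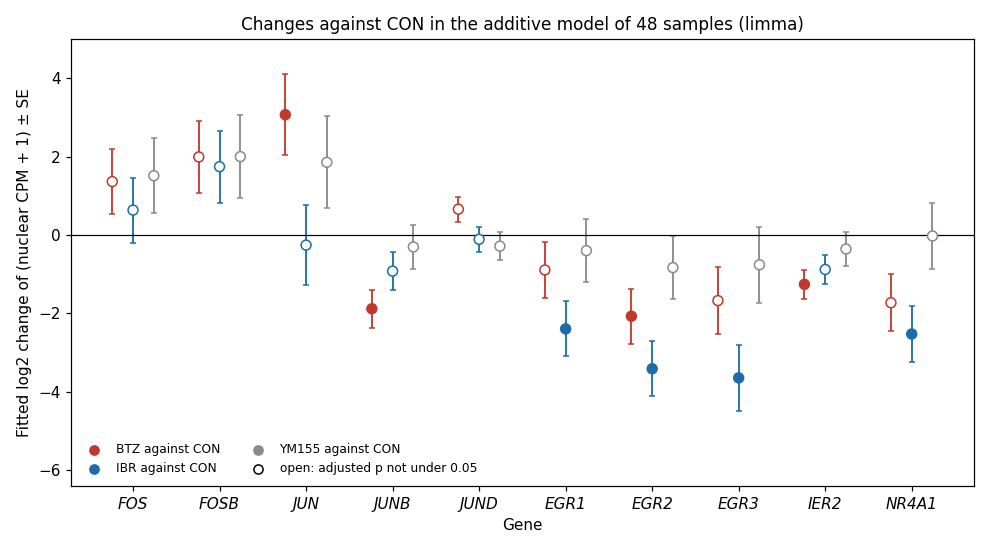
Fitted log2 change of (nuclear CPM + 1) against CON for BTZ, IBR and YM155 (vertical axis) for each of the 10 genes (horizontal axis), with bars of 1 SE. Filled points have an adjusted p under 0.05 in limma: JUN (3.07), JUNB, EGR2 and IER2 with BTZ, and EGR1, EGR2, EGR3 (-3.65) and NR4A1 with IBR.

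Heat shock transcripts also moved in the pooled fits, but little with IBR in JEKO-1. All 5 listed heat shock genes rose with BTZ in the pooled fit, HSPA6 by 8.01 ± 1.499 (adjusted p = 0.000328, limma). Over all lines their summed level was 173 to 1709 nuclear CPM in CON, 747 to 31414 with BTZ and 1511 to 20076 with IBR. HSPA6 encodes a strictly stress-inducible HSP70. It was at 5385 and 5424 nuclear CPM in JEKO-1 BTZ replicates 1 and 2 and at 87.2 in replicate 3, where JUN was at 0.0738. The mitochondrial share was 67.6% and 67.5% in the first 2 and 9.92% in the third. DNAJB1, another of the 5, was at 178 in JEKO-1 CON and 53.9 in BTZ replicate 3. With IBR in JEKO-1 it was at 193, 214 and 176, and HSPA6 was at 15.9, 16.95 and 13.99 against 4.85 in CON. The median fitted change of the 5 genes with IBR was 0.09 in JEKO-1 (3 of 5 positive) and 4.81 in Z138. EGR2 went in JEKO-1 from 15.3 in CON to at most 0.323 with IBR. Of 7 B-cell and mantle cell markers, 4 were called lower with BTZ and 3 with IBR (adjusted p under 0.05, limma). Of all genes, 12.8% and 4.88% were called lower. The fitted change was positive for 0 of the 7 with BTZ and 1 with IBR. Their summed level was 4060 to 4728 in CON, 1383 to 3250 with BTZ and 1825 to 6347 with IBR. The part of these shifts in the changes of the immediate early genes was not tested.

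**Figure D3:**
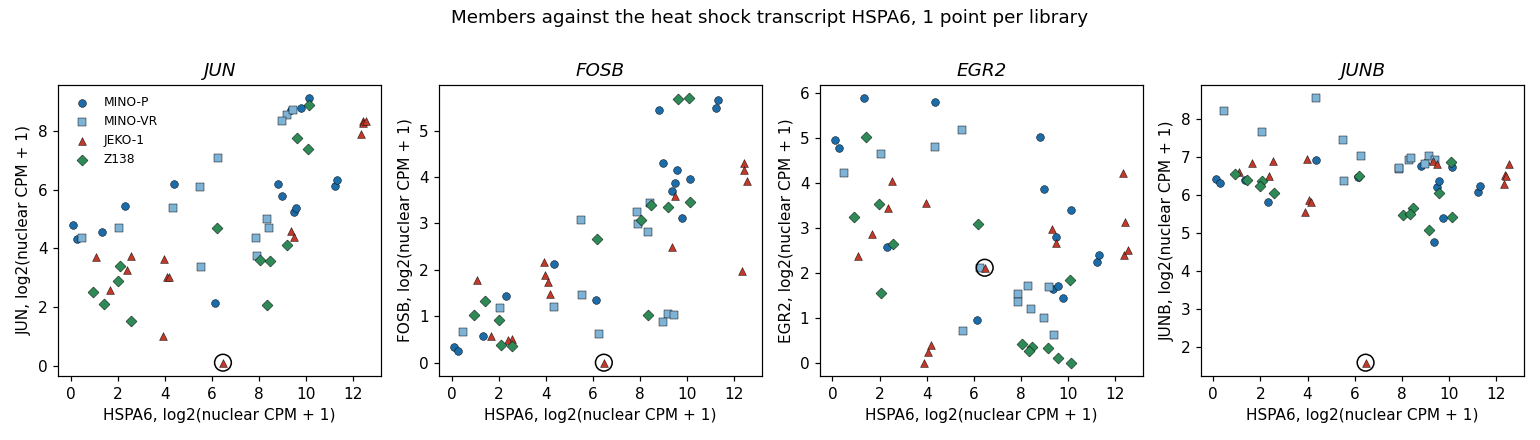
JUN, FOSB, EGR2 and JUNB (vertical axes) against the heat shock transcript HSPA6 (horizontal axis), both as log2(nuclear CPM + 1), with 1 point per library and colours and shapes for the cell lines. The ring marks JEKO-1 BTZ replicate 3, with HSPA6 at 87.2 and JUN at 0.0738 nuclear CPM.

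With IBR, the EGR genes and NR4A1 fell. EGR1, EGR2, EGR3 and NR4A1 were called lower and none of the 10 higher, where 8.07% of genes were called (3.19% higher, 4.88% lower). The median change was -0.90 over the 10 genes and -0.003 over all genes tested. EGR1, EGR2 and EGR3 were below every CON library of the same line in all 4 lines, an order that 7.45% of genes showed.

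EGR2 had the lowest adjusted p of the 10, with a log2 change of -3.41 ± 0.70 (adjusted p = 0.00242, limma). In JEKO-1 it went from 15.3 nuclear CPM to 0.178, 0.323 and 0, and in Z138 from 8.45 and 1.92 to 0.263 and 0.334. In MINO-P it went from 30.2 to 5.95, 2.27 and 0.933, and in MINO-VR from 17.6 to 2.26, 1.28 and 0.639. EGR2 was thus near the detection limit in JEKO-1 and Z138 and low but measurable in both MINO cultures. EGR3, a close relative that acts with EGR2, changed by -3.65 ± 0.85 (adjusted p = 0.0068, limma). It was at 41.3 and 19.1 in MINO-P and MINO-VR CON and at 0 to 1.06 in their 6 IBR libraries, and it was at 0 in all 5 IBR libraries of JEKO-1 and Z138. EGR1, the founding member, was at 5.63 to 73.5 in CON and at 0 to 6.15 over the 11 IBR libraries (median 2.42), a change of -2.40 ± 0.70 (adjusted p = 0.0279, limma). Both ends of that CON range were the 2 Z138 libraries, and the other lines lay at 10.7 to 14.2. With IBR in Z138, EGR1 was at 2.95 and 4.99.

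NR4A1, whose transcript is widely used as a readout of antigen receptor signalling, changed by -2.53 ± 0.73 (adjusted p = 0.0256, limma). It went from 42.5 nuclear CPM to 1.25, 0.969 and 6.87 in JEKO-1 and from 61.5 and 14.6 to 2.36 and 19.9 in Z138, where the groups overlapped. In MINO-P it went from 30.7 to 19.4, 18.3 and 5.07, and in MINO-VR from 15.1 to 14.9, 15.2 and 1.74. With IBR replicates 1 and 2 of MINO-VR at the CON level, the low values in that culture came from replicate 3. The calls of EGR1 and NR4A1 were lost on leaving out JEKO-1 CON (adjusted p = 0.0897 and 0.0780, limma) or Z138 CON replicate 1 (0.119 and 0.0667). The NR4A1 call was also lost without the averaged JEKO-1 IBR replicates 1 and 2 (0.0630) or Z138 IBR replicate 1 (0.0623). In JEKO-1 and Z138 alone, where no library name series intervenes, the changes were -2.16 for EGR1, -2.81 for EGR2, -2.22 for EGR3 and -2.44 for NR4A1, and none passed the threshold (adjusted p from 0.113 to 0.347, limma).

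No AP-1 gene among the members was called with IBR. FOSB was above CON in all 4 lines, an order that 4.2% of genes showed: it lay at 0.255 to 1.04 nuclear CPM in CON and at 1.53 to 16.7 with IBR (median 6.04), a change of 1.74 ± 0.92 (adjusted p = 0.256, limma). FOS was at 27.4 to 41.5 in IBR replicates 1 and 2 of both MINO cultures, 4.19 and 4.47 in replicate 3, 9.06 and 7.998 in Z138, and 0.892, 0.323 and 0 in JEKO-1. It was thus above CON in the MINO cultures and below it in JEKO-1, but no member passed limma's F-test for a treatment effect that differs between lines, which called 0.155% of genes for IBR and 0.0537% for BTZ. In the direct contrast of IBR effects in JEKO-1 and Z138, 0.0119% of genes and no member were called. JUN had a change of -0.26 ± 1.02 and JUND of -0.11 ± 0.32. JUNB had a change of -0.92 ± 0.48 (adjusted p = 0.254, limma) and IER2 of -0.88 ± 0.37 (adjusted p = 0.140). Both passed with limma array weights (-0.88 and -0.78, adjusted p = 0.0224 and 0.0338), where 24.2% of genes were called. They also passed without JEKO-1 BTZ replicate 3, left out after its values were seen (-1.09 and -0.98, adjusted p = 0.00943 and 0.0193, limma), where 13.6% of genes were called.

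Within single lines none of the 10 genes passed the threshold in the 8 treatment contrasts tested, each with few libraries (limma, 1 mean per line and treatment, 11 residual degrees of freedom). BTZ against CON was 1 library against 1 in each MINO culture, and Z138 BTZ and JEKO-1 CON were also 1 library each. The SE and p rest on the spread pooled over all groups, and a group of 1 sample is assumed to vary like the others. The fit in Z138 alone, given next, used 13 libraries and had fewer degrees of freedom than the 11 above. For JUN, JUND and EGR2 with BTZ it was the 1 of 10 alternatives that gave a call. In Z138 alone, with a letter in the library names as replicate block, JUN (6.89, adjusted p = 0.00972), JUND (1.199, adjusted p = 0.0333) and EGR2 (-3.15, adjusted p = 0.0191) passed with BTZ, where 16.6% of 14120 genes were called, and JUNB with IBR (-1.18, adjusted p = 0.0494), where 4.98% were (limma). In the fit over all lines the share of genes called was 1.84% for BTZ in Z138, 0.818% for BTZ in JEKO-1, 0.161% for BTZ in MINO-VR, 0.119% for BTZ in MINO-P, 0.0477% for IBR against S63845 in MINO-P, 0.0239% for IBR in JEKO-1, 0.00597% for IBR in Z138 and 0% for S63845 in Z138. At an unadjusted p under 0.05 in limma were JUN with BTZ in Z138, JUNB and IER2 with BTZ in JEKO-1, EGR2 and EGR3 with BTZ in MINO-P, EGR2 with IBR in JEKO-1, and EGR1, EGR2 and EGR3 with IBR against S63845 in MINO-P. JUN with BTZ had a change of 5.93 ± 2.43 in Z138, 3.90 ± 2.80 in MINO-P, 2.74 ± 2.80 in MINO-VR and 0.46 ± 2.43 in JEKO-1. The JEKO-1 value was 4.58 without BTZ replicate 3 and -3.65 with that library as the only BTZ sample. JUNB and IER2 with BTZ in JEKO-1 had changes of -2.84 ± 1.18 and -1.94 ± 0.91, and of -0.38 and -0.28 without BTZ replicate 3 (adjusted p = 0.796 and 0.906, limma). EGR2 with IBR had a change of -3.87 ± 1.26 in JEKO-1 (adjusted p = 0.426, limma) and -2.02 ± 1.03 in Z138 (adjusted p = 0.523). In MINO-P, IBR was set against S63845, which shares its library name series. There EGR1, EGR2 and EGR3 had changes of -3.08 ± 1.38, -2.58 ± 1.03 and -3.08 ± 1.19, and the 2 S63845 libraries differed between themselves in EGR3 (64.4 and 0.724 nuclear CPM). Without the second of them, EGR3 passed (-5.71, adjusted p = 0.0251, limma), and without the first it was -0.46 and EGR2 -0.97, and neither passed.

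Genes related to the members were also called with BTZ, beside 16.8% of all genes. Of 14 other AP-1 family genes and partners, 4 rose and none fell: FOSL1 by 2.83 ± 0.50, FOSL2 by 2.24 ± 0.58, MAFF by 1.70 ± 0.58 and MAFG by 1.39 ± 0.47. FOSL1 and FOSL2 encode FOS-like partners of the JUN proteins, and FOSL1 went from 0 to 2.42 nuclear CPM in CON to a median of 14.9 with BTZ. Of 32 other immediate early genes tested, 3 rose and 3 fell, a share near that of all genes. KLF6, a zinc finger factor, rose by 1.94 ± 0.32, GADD45A, a stress sensor, by 1.89 ± 0.61, and RHOB, a small GTPase, by 1.30 ± 0.46, while KLF2 (-1.67 ± 0.59) and the NF-kB inhibitors TNFAIP3 (-1.64 ± 0.39) and NFKBIA (-1.19 ± 0.33) fell. The phosphatase genes that switch MAP kinases off were split too: of 12 feedback genes tested, DUSP1 (1.94 ± 0.58) and DUSP16 (1.84 ± 0.38) rose and DUSP2 (-2.24 ± 0.65) fell. Among 23 kinases and promoter-bound factors upstream, CREM rose by 1.05 ± 0.33 and 5 fell, including the ERK gene MAPK3 (-1.46 ± 0.25), the JNK kinase MAP2K7 (-1.43 ± 0.47) and MEF2D (-1.23 ± 0.35). The median change was 0.38 for the AP-1 list, -0.05 for the other immediate early genes, 0.15 for the feedback list and -0.13 for the upstream list, against -0.19 over all genes. All calls are adjusted p under 0.05 in the same limma fit.

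With IBR, 8.07% of all genes were called. MAFG, a partner of stress-response factors, was 1 of 14 on the AP-1 list and rose by 2.44 ± 0.47. Of the 32 other immediate early genes, PPP1R15A (2.48 ± 0.79), a regulator of the integrated stress response, and CSRNP2 (1.24 ± 0.25) rose, and ID3 (-1.82 ± 0.50) and TNFAIP3 (-1.37 ± 0.39) fell. None of the 12 feedback genes and none of the 23 upstream genes was called, and their medians were -0.81 and 0.01. The 4 corepressor genes, among them the EGR partners NAB1 and NAB2, were called with neither agent.

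YM155 left no member past the threshold, while 0.519% of genes were called. FOSB had a change of 1.997 ± 1.05 (adjusted p = 0.391, limma), JUN of 1.85 ± 1.17 and FOS of 1.51 ± 0.95, and no member reached even an unadjusted p under 0.05. Z138 carried the highest values: FOS was at 78.8, FOSB at 50.2 and JUN at 219 nuclear CPM in its YM155 library, with EGR2 at 0.0809 and EGR3 at 0 and HSPA6 at 772. In MINO-P EGR1 was at 24.1, EGR2 at 57.8 and EGR3 at 86.6, with FOS at 8.29, JUN at 22.7 and HSPA6 at 1.504. MINO-VR held both sets above CON, with FOS at 17.7, FOSB at 7.40, JUN at 67.7, EGR1 at 15.3, EGR2 at 35.0 and EGR3 at 45.6. FOS, JUN and the EGR genes lay below CON in JEKO-1. The YM155 libraries thus differed in pattern, but each line held 1 of them, so a difference between lines was not shown. No member passed limma's F-test for a YM155 effect that differs between lines, which called 0.0239% of genes. FOSB was above CON in all 4 lines and JUNB below, orders that 10.4% and 10.8% of genes showed.

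S63845 and CLF gave 0 calls over all genes in limma (0% each; 420 and 58 genes at an unadjusted p under 0.05, and 0 and 4 calls with limma array weights), and none of the 10 genes reached an unadjusted p under 0.05. The largest member changes were 1.28 ± 0.96 for FOSB with S63845 and 0.62 ± 0.80 for FOS with CLF. With S63845 the Z138 libraries disagreed: FOSB was at 0.890 and 50.8 nuclear CPM, JUN at 6.48 and 168 and HSPA6 at 2.98 and 1084. The second library was high in all 3 genes.

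Adding CLF to IBR gave positive fitted changes for all 10 genes against IBR alone, from 0.01 ± 0.29 for JUND to 1.52 ± 0.63 for EGR1, with 0% of genes called in limma (686 at an unadjusted p under 0.05, 4 with array weights). EGR1 and EGR2 were the members at an unadjusted p under 0.05. In Z138 the IBR_CLF libraries differed, EGR1 lying at 154 in replicate 1 and 4.05 in replicate 2. In MINO-VR the mean nuclear CPM of EGR2 and FOSB rose from IBR to IBR_CLF and that of the other members fell. IER2 went there from 72.4 to 49.0, JUN from 21.7 to 16.1 and NR4A1 from 10.6 to 6.74. The JEKO-1 IBR_CLF libraries held 2.18 and 2.63 M nuclear reads. Adding CLF to BTZ also gave 0% called (546 unadjusted, 6 with array weights), and JUN was at 446 in MINO-P, 379 in MINO-VR and 237 and 327 in JEKO-1.

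Other combinations were held by 1 library per line and have no replicate check. In MINO-P, IBR_YM155 showed EGR1 at 32.9, EGR2 at 31.6 and EGR3 at 22.7 nuclear CPM, above the IBR libraries of that culture (at most 6.15, 5.95 and 0.936), with FOS at 86.5, its highest value in any library. In Z138, IBR_YM155 showed EGR2 at 0.192 and EGR3 at 0, no higher than with IBR alone, and EGR1 at 8.76 against 4.99 and 2.95. MINO-P IBR_S63845 held EGR2 at 13.6 and EGR3 at 2.29. With BTZ_YM155, JUN was at 558 in MINO-P and 323 in MINO-VR, and with BTZ_S63845 at 424 in MINO-VR, while EGR2 was at 9.46, 1.001 and 0.541 in the same libraries.

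MINO-VR and MINO-P differed in JUNB and NR4A1. Over the 9 treatments found in both, JUNB was higher in MINO-VR by 1.15 ± 0.22 (log2; adjusted p = 0.00185, limma) and NR4A1 lower, at -1.19 ± 0.32 (adjusted p = 0.017, limma), where 17.1% of 14534 genes were called (9.89% higher, 7.24% lower). The share of members called was therefore near that of all genes. JUNB was higher by treatment mean in 9 of 9 treatments, for instance at 295 against 84.1 nuclear CPM in CON and 371 against 78.8 with CLF. The difference was smallest with BTZ_YM155, at 112 against 106. NR4A1 was lower in 9 of 9, for instance at 6.54 and 6.95 against 45.1 and 37.6 with IBR_CLF and at 15.1 against 30.7 in CON. JUND was higher in 8 of 9 treatments (0.33 ± 0.12, adjusted p = 0.0681, limma), and the other 7 genes had changes from -0.87 (FOS) to 0.22 (IER2). Among related genes, KLF2 fell by 1.22 (SE 0.17, adjusted p = 0.000154, limma), the largest change on its list.

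Seen over the 37 groups, each centred within its cell line, the members sorted into sets. The closest pairs were EGR2 with EGR3 (Pearson r = 0.89), EGR1 with EGR2 (0.87), FOS with FOSB (0.81), EGR2 with NR4A1 (0.77), EGR1 with EGR3 (0.77) and IER2 with NR4A1 (0.77). JUNB followed IER2 (0.73) and EGR2 (0.70), while JUN had its highest r among members with JUND (0.71) and an r of -0.35 with EGR2. JUN, FOS and FOSB followed HSPA6 with r of 0.66, 0.65 and 0.72, and EGR2 and EGR3 had r of -0.59 and -0.65 with it. These r describe group means that share libraries, depth and treatments and carry no test.

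**Figure D4:**
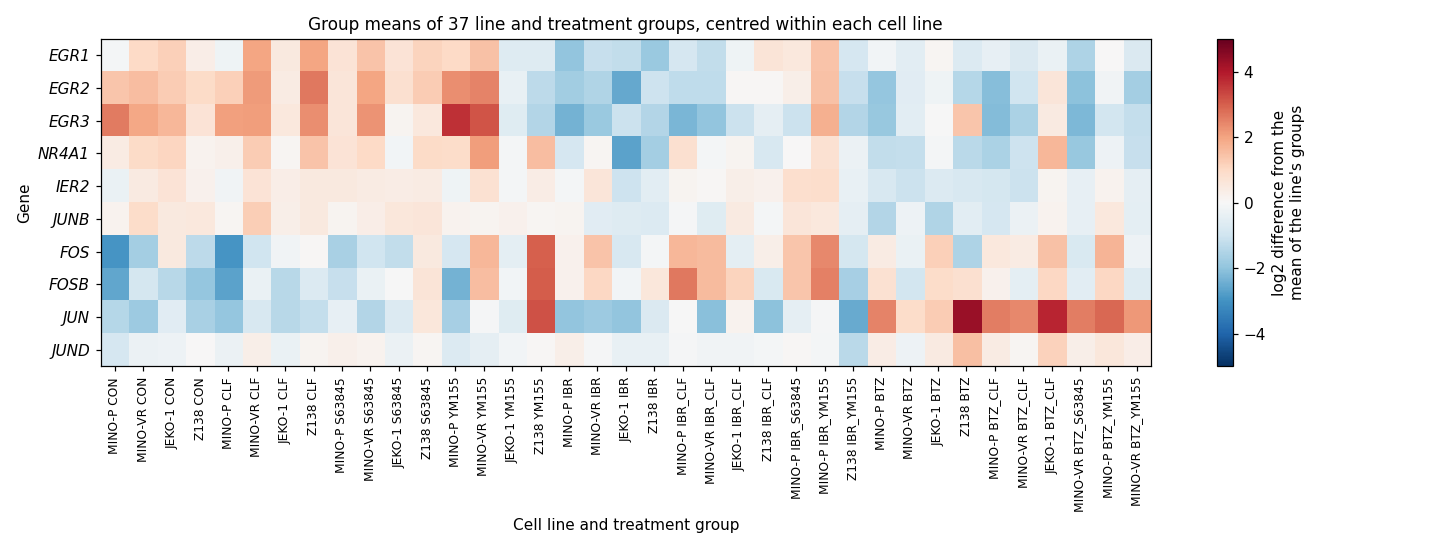
Group means of the 10 genes (vertical axis) in 37 groups of cell line and treatment (horizontal axis), as the log2 difference from the mean of the groups of the same line, red for higher and blue for lower. The EGR genes are blue in the 4 groups given IBR alone, and JUN is red in the 10 groups with BTZ.

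Outside the members, the genes with patterns most like theirs over the same 37 means were E2F7 (r = 0.89), SORL1 (0.87) and ZNF367 (0.85) for EGR2, and HIVEP3 (0.89), KLHL14 (0.87) and SEMA7A (0.86) for EGR3. RASD1 came first for both FOS (0.86) and FOSB (0.87), followed by TSPYL2 and KCTD2 for FOS and SERTAD1 and CSRNP2 for FOSB. JUN was closest to S100A2 (0.86), TNFRSF12A (0.86) and DPH3 (0.84), and S100A2 also came first for JUND (0.73). NR4A1 was closest to E2F7 (0.76), PTPN2 and GNAS, JUNB to NR2C2AP (0.82), WDR5 and MCMBP, and IER2 to GNB1L (0.76), FAM222A and UBTF.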

How the data were processed

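Poly-A RNA-seq was measured in 56 libraries. The deposited values were log2(CPM + 1), and the submitters' processing notes name Partek and the build hg38. The aligner and counter are not given in the sources used here. CPM was recovered by undoing the log2 and rescaled to nuclear-encoded genes. Between 71.0% and 88.7% of values up to 20 reads per library lay within 0.1 of a whole read, so no count model was fitted. An entry without a gene name (at most 0.000773% of a library) was left out. The 8 pairs of libraries whose names differ only by a final a were averaged, which gave 48 samples. limma 3.58.1 (R 4.3.3) with an intensity trend was fitted to log2(nuclear CPM + 1) of genes with at least 1 nuclear CPM in 2 or more samples, with Benjamini-Hochberg adjustment over all genes, so fold changes of low genes are understated. The pooled fit of BTZ against CON was tested on simulated data, and the other contrasts and fits were not. Replicate numbers only name libraries. Members, gene lists and tests were chosen with earlier results of these data known. Beside the members, up to 4 called genes per list with the largest change were named, and the 3 genes most like each member, those of EGR1 not being reported here. Alternatives changed scaling, filter, pseudocount, pairs, lines, series term and weights, and left out each sample in turn. S100A8 was not analysed here.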

Additional observations from a re-analysis of the deposited data

How the results depend on the processing

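Counts below are of the 10 genes called in limma, against 4 for BTZ and 4 for IBR in the pooled fits. For BTZ the count was 2 with no filter on low values, 0 in JEKO-1 and Z138 only and 9 with array weights. With those weights 5371 of 16755 genes were called for BTZ, against 2822 in the fit as reported. For IBR the count was 0 in JEKO-1 and Z138 only and 6 with array weights, where 24.2% of genes were called against 8.07%. Counts given without a share of all genes describe no change particular to the members. Leaving out each sample in turn gave 2 to 5 for BTZ, 2 to 4 for IBR, 2 to 3 for MINO-VR against MINO-P (2), and, from a count of 0, 0 to 3 for BTZ in JEKO-1, 0 to 3 for the BTZ effect by line and 0 to 1 for IBR against S63845 in MINO-P. The 5 came without JEKO-1 BTZ replicate 3, the 3 of MINO-VR without the BTZ library of either culture (JUND added), the other 3 without the averaged JEKO-1 BTZ replicates 1 and 2, and the 1 without MINO-P S63845 replicate 2. On the deposited scale with mitochondrial genes kept, 2 were called for BTZ in JEKO-1. With the name suffix as replicate block, Z138 alone gave 3 for BTZ and 1 for IBR, against 0, and 0 for S63845. Of all genes, 16.6% were called there for BTZ and 4.98% for IBR. The labels give no replicate numbers, so the block rests on a letter in the library names. Directions reversed for 4 results. JUN with BTZ in JEKO-1 was -0.32 on the deposited scale, -0.32 with a pseudocount of 0.25, and -3.65 to 4.58 on leaving out a sample. Leaving out each sample gave -0.61 to 0.14 for JUN with IBR, -0.19 to 0.011 for JUND with IBR and -0.27 to 0.26 for EGR3 in MINO-VR against MINO-P. JUND with IBR was 0.16 with no series term. None of these was called in the fit as reported. The median BTZ change over all genes was -0.19 as reported, -0.38 on the deposited scale and -0.095 with median-of-ratios factors, and the directions of all 10 genes held in each. Leaving JEKO-1 BTZ replicate 3 out of the comparisons without BTZ, chosen after seeing the data, gave 6 for IBR, where 13.6% of genes were called. The cause of these shifts was not tested. At 3 reads, EGR3 and FOS could not be measured under 2.18 nuclear CPM in the shallowest library. No group held enough libraries for a test of outlying values.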
